A study of Homo sapiens with 6 samples.

Results

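Eph receptors and their membrane-bound ligands, the ephrins, were followed in AGS, a widely used cell line from a human stomach adenocarcinoma, after silencing of the splicing factor gene SRSF2. The 10 genes described are the rows of the deposited count table named EPHA1, EPHA2, EPHA4, EPHB2, EPHB3, EPHB4, EFNA1, EFNA4, EFNB1 and EFNB2, that is 6 receptor genes and 4 ligand genes of 56303 gene entries. RNA was sequenced from 3 libraries of AGS cells that received an siRNA (a short RNA that silences a chosen gene) directed at SRSF2, called siSRSF2 here, and from 3 libraries of AGS cells labelled WT. Library titles of the first group read siSRSF, and the gene SRSF2 is named by the genotype label and the series title. The tissue label reads gastric cancer tissue for all 6, although the cells are a line. No dose, time after transfection or control siRNA is given in the labels, and they do not say whether the replicates were separate cultures, so the p-values below measure the spread between these libraries, which may be technical.

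Eph receptors form a large family of receptor tyrosine kinases that are activated when an ephrin on a neighbouring cell binds them. EPHA receptors mainly bind A-type ephrins, which are held in the membrane by a glycolipid anchor, and EPHB receptors mainly bind B-type ephrins, which cross the membrane and can signal back into the cell that carries them. Receptor and ligand together control cell repulsion, adhesion and tissue boundaries. In the gut epithelium EPHB2 and EPHB3 help to sort cells along the crypt, and EPHA2 is known for high levels in many carcinomas.

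All 10 genes have an entry of 250 bases upstream of the start in the RefSeq promoter table (GRCh38.p14). The 4 windows below belong to EPHA2 and EFNB2, the receptor and the ligand gene with the lowest log2 fold changes among the 10, to EFNA4, a ligand gene that was higher, and to EPHB4, whose level per length was highest in both groups. Each is written 5′ to 3′ on the strand of the gene and ends at the base before the annotated start. Capitals mark matches, on either strand, to 6 short motifs. A cAMP response element (CRE) was searched as TGACGTCA. An AP-1 site was searched as the letters TGANTCA. The letters for a GC box were GGGCGG. Those of the CCAAT box are its name, an E-box was read as CACGTG, and the letters TATAAA stood for a TATA box.
EPHA2, chr1:16156070-16156319, minus strand: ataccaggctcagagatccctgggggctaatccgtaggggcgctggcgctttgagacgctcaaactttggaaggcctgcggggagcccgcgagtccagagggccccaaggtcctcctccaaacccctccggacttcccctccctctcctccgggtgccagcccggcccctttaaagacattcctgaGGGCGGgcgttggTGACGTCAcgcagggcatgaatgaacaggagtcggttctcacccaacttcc
EFNB2, chr13:106535663-106535912, minus strand: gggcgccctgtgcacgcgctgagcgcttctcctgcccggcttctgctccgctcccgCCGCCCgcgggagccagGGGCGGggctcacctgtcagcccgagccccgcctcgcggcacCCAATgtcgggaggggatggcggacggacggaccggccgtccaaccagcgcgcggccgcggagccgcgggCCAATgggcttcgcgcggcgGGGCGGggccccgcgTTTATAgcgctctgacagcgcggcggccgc
EFNA4, chr1:155063490-155063739, plus strand: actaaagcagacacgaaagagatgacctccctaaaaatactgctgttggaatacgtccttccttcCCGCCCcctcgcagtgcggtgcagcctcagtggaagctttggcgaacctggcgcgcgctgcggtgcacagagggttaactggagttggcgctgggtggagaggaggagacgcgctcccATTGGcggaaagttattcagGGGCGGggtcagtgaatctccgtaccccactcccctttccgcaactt
EPHB4, chr7:100827524-100827773, minus strand: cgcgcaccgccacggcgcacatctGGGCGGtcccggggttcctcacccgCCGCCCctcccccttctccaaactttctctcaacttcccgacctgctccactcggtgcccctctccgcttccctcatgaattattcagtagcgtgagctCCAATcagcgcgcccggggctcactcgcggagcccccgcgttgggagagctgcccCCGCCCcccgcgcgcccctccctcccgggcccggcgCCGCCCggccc

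The window of EPHA2 was the only one of the 10 to hold the CRE letters, which begin 51 bases before its start. They were present in 1.65% of the 35116 promoter windows in the table. A GC box begins 64 bases before the start, and all 10 windows held at least 1 GC box, against 42.6% of all windows. Except for EPHA4 (43.2%), their GC content lay above the median of 58% over all windows, reaching 84.8% in EPHB2. GC content was not matched in this comparison. A CCAAT box was found in 6 of 10 windows (32.0% of all windows), and in the EPHB3 window it shares bases with a GC box. TATA box letters were found in 1 of 10, that of EFNB2 (10.7% of all windows, either strand). There they lie on the strand opposite to the gene, read as TTTATA in the window, and begin 30 bases before the start. The AP-1 letters (6.57% of all windows) and the E-box letters (6.34%) were in none of the 10. These matches describe the letters of the windows, and no binding was measured here. The annotated start of EFNB2 lies 548 bases upstream of the 5′ end in the count table, and that of EFNA1 416 bases downstream of it; for the other 8 genes the ends differ by at most 36 bases.

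Total counts per library ranged from 26610937 to 36651623 in siSRSF2 and from 47518943 to 50021152 in WT. Levels are given as CPM, the count of a gene divided by the TMM-scaled library size and brought to the usual fixed total. On this scale 3 counts correspond to between 0.0777 and 0.110 CPM in siSRSF2 libraries and between 0.0629 and 0.0656 CPM in WT libraries, counting error only. SRSF2 itself was at 21.5, 21.8 and 24.8 CPM in siSRSF2 libraries, against 44.5, 46.3 and 44.1 CPM in WT libraries (log2 fold change -0.98, SE 0.064, edgeR adjusted p = 4.39e-13). SRSF2 shares 36.7% of its exon length with MFSD11 on the opposite strand, and without strand, reads in those bases could belong to either gene. The keratin genes KRT8 (2773 ± 101 CPM in siSRSF2, 3233 ± 156 CPM in WT; SD, n = 3 per group) and KRT18 were abundant, while the epithelial cadherin gene CDH1 was close to the detection limit, with 6 to 12 counts per library and a mean of 0.276 CPM in siSRSF2 and 0.219 CPM in WT. Of 7 epithelial markers 2 were higher, the claudin genes CLDN7 (5.88-fold) and CLDN4 (3.46-fold), 1 was lower (KRT8, log2 fold change -0.22) and 4 did not pass. Of 8 gastric markers 4 were tested and 2 were higher, MUC1 and GATA6, and TFF2 was at 0 in every library. The summed level of all 8 was 54.2 to 60.4 CPM in siSRSF2 and 18.4 to 20.6 CPM in WT. MUC1 made up most of it, with means of 52.6 CPM in siSRSF2 and 17.3 CPM in WT. Markers of other cell types moved with the group. All 5 fibroblast markers were higher (summed level 50.2 to 56.2 CPM in siSRSF2, 21.9 to 22.3 CPM in WT), and 2 of 2 tested endothelial markers were lower. None of the 10 fibroblast and endothelial markers was at 0 in every library. Their part in the results on Eph and ephrin genes was not tested.

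Of the 10 genes, 9 passed the filter on low counts and were tested, and 8 changed between siSRSF2 and WT cells, 5 lower and 3 higher (edgeR adjusted p under 0.05). Across all 23689 genes tested, 59.1% passed this threshold, 29.0% lower and 30.1% higher, so a change as such is common in these libraries. The CPM of the groups did not overlap for 8 of the 9 tested genes, and for 63.8% of all tested genes. The lower genes were the receptor genes EPHA2, EPHA1 and EPHB2 and both B-type ephrin genes, EFNB2 and EFNB1. The higher ones were EPHB3, EFNA4 and, by a small margin, EPHB4. EFNA1 did not pass the test, and EPHA4 was too low to test. EPHB3 passed the filter only through the siSRSF2 libraries, where it is high. Among the genes called, 3 were lower by more than 2-fold (5.91% of all tested genes) and 1 was higher by more than 2-fold (13.4%). The median log2 fold change was -0.62 over the 9 tested genes and 0.02 over all genes tested. Over the 4 tested Eph and ephrin genes outside the list, described below, it was 0.83, so the lower median holds for the listed genes and not for the family. RNA was taken from whole cultures, in which less RNA in every cell and fewer cells that make it cannot be told apart.

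**Figure D1:**
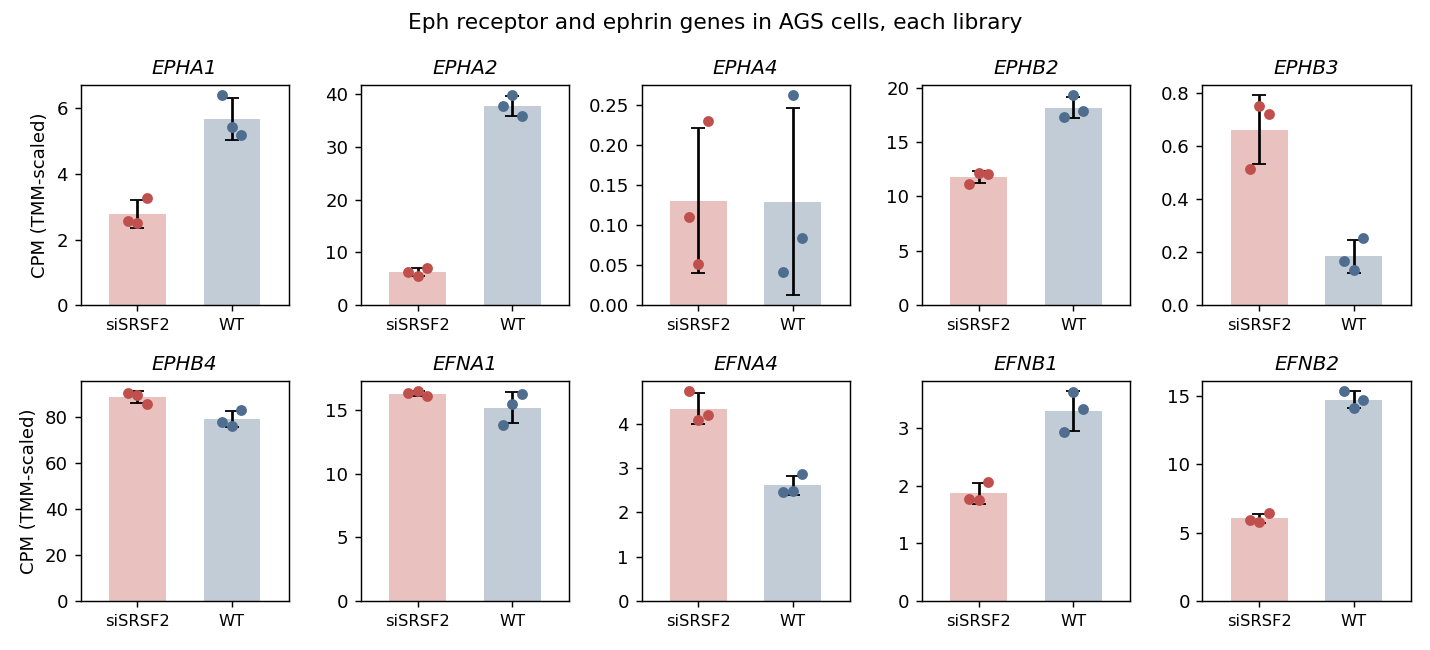
Level of each of the 10 genes in CPM (vertical axes start at 0 and differ between panels) in siSRSF2 (left, red) and WT (right, blue) AGS cells; bars are means, error bars SD of 3 libraries, points single libraries. EPHA2 lay between 5.57 and 7.06 CPM in siSRSF2, below all 3 WT libraries at 35.9 to 39.8 CPM, while the points of EFNA1 and EPHA4 overlapped between the groups.

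Among the A-type receptor genes, EPHA2 (chromosome 1, 16124337 to 16156087, minus strand, 18 merged exons; GRCh38 positions here and below) fell furthest. Its levels were 6.21, 5.57 and 7.06 CPM in siSRSF2 libraries, against 37.7, 39.8 and 35.9 CPM in WT libraries, from counts of 169, 215 and 245 against 1797, 1819 and 1705. All siSRSF2 libraries lay far below all WT libraries, and each group was tight. EPHA2 thus had a log2 fold change of -2.59 with an SE of 0.084 (edgeR adjusted p = 4.06e-19), a 6.02-fold lower level. Only 46 of the 23689 tested genes (0.194%) had a lower log2 fold change. The product of EPHA2 is a receptor that can promote migration when no ligand is bound and restrain it when ephrin-A1 binds. None of its exon bases is shared with another entry of the table.

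The 3 genes whose centred log2 CPM over the 6 libraries lay nearest to that of EPHA2, among 17144 genes with a mean of at least 1 CPM, were MT2A, TFPI2 and PMEPA1. MT2A encodes a metal-binding metallothionein, and its distance from EPHA2 was 0.29 on the log2 scale. TFPI2, an extracellular serine protease inhibitor, was at a distance of 0.31, and PMEPA1, a membrane protein that restrains TGF-beta signalling, at 0.40. TFPI2 had 6.14, 7.02 and 8.65 CPM in siSRSF2 libraries, against 44.4, 44.9 and 46.3 CPM in WT libraries. The likeness rests on 6 libraries in 2 groups and describes the size of the change and little else.

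EPHA1 (chromosome 7, 143390289 to 143408892, minus strand, 18 merged exons), the founding member of the receptor family, fell as well. It had 2.57, 2.51 and 3.26 CPM in siSRSF2 libraries, against 6.39, 5.44 and 5.20 CPM in WT libraries. The groups did not overlap, with a log2 fold change of -1.03 for EPHA1 (SE 0.15, edgeR adjusted p = 9.94e-07). The gene shares 82 exon bases, 1.7% of its length, with ZYX on the opposite strand, and ZYX was also lower (log2 fold change -1.5, SE 0.064, edgeR adjusted p = 9.13e-17). The sources used here do not say whether the counting used strand. EPHA4 (chromosome 2, 221418027 to 221574202), a receptor of both ephrin classes, had counts of 3, 2 and 8 in siSRSF2 libraries and of 2, 12 and 4 in WT libraries. It shares 353 exon bases, 4.7% of its length, with CTD-2308L22.1 on the opposite strand. Its levels of 0.110, 0.0518 and 0.231 CPM in siSRSF2 spanned much of the same range as 0.0419, 0.262 and 0.0842 CPM in WT, and a difference was not detectable at this depth.

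The 3 B-type receptor genes did not move together, with EPHB2 lower and EPHB3 and EPHB4 higher. EPHB2 (chromosome 1, 22710839 to 22921500, plus strand, 18 merged exons) had 11.2, 12.2 and 12.0 CPM in siSRSF2 libraries, against 17.3, 19.3 and 17.9 CPM in WT libraries. It was lower without overlap, with a log2 fold change of -0.62 (SE 0.080, edgeR adjusted p = 2.02e-07), and it shares 34 exon bases, 0.3% of its length, with the microRNA gene MIR4253 on the opposite strand. EPHB3 (chromosome 3, 184561784 to 184582409, plus strand, 16 merged exons), which acts beside EPHB2 in the mouse intestine, was scarce in all libraries. It had 0.515, 0.752 and 0.721 CPM in siSRSF2 libraries, against 0.168, 0.131 and 0.253 CPM in WT libraries. These levels rest on 14, 29 and 25 reads in siSRSF2 and on 8, 6 and 12 in WT, and the groups did not overlap. EPHB3 was higher, with a log2 fold change of 1.84 (edgeR adjusted p = 0.000705), whose SE of 0.44 gives a wide 95% interval of 0.99 to 2.70 on the log2 scale. It entered the test only through the siSRSF2 libraries, where it is high, so its p-value is descriptive.

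EPHB4 (chromosome 7, 100802565 to 100827521, minus strand, 17 merged exons), the receptor of ephrin-B2 in vein endothelium and also an epithelial gene, was the most abundant of the 10 per length. It had 90.7, 89.9 and 85.7 CPM in siSRSF2 libraries, against 78.0, 76.3 and 83.2 CPM in WT libraries. The groups lay close together without overlap. EPHB4 was 1.12-fold higher (log2 fold change 0.16, SE 0.049, edgeR adjusted p = 0.00545), and this small rise rests on the settings. Without WT replicate 2 the log2 fold change was 0.13 (edgeR adjusted p = 0.0658), with no filter on low counts it was 0.089 (adjusted p = 0.229), and in a test against a change of 1.2-fold the adjusted p was 0.965. With scaling by library totals alone it was 0.29, where the median of all tested genes moved up by 0.13. EPHB4 shares 69 exon bases, 1.1% of its length, with SLC12A9 on the opposite strand.

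**Figure D2:**
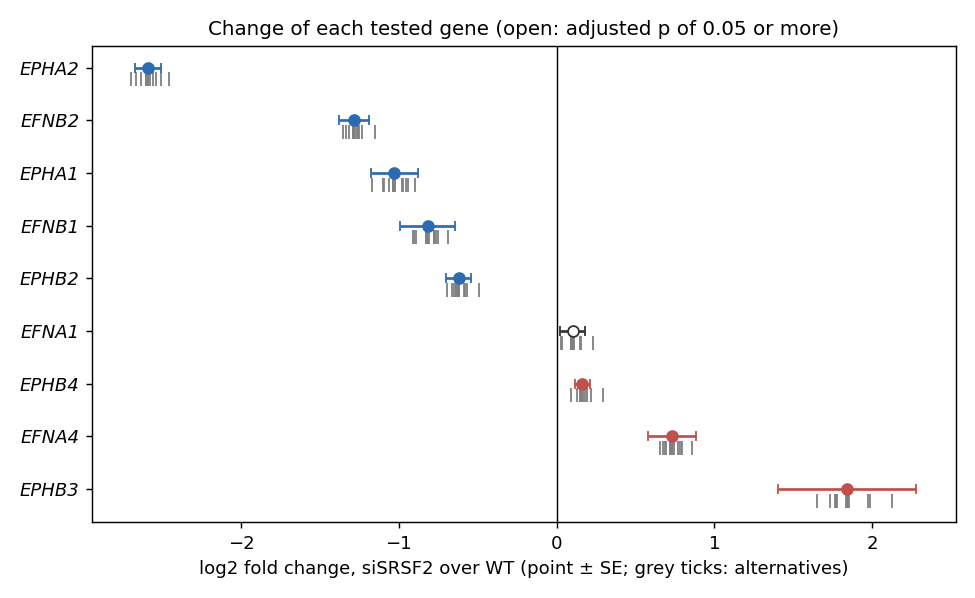
The log2 fold change, siSRSF2 over WT, of the 9 tested genes (horizontal axis), as points with SE from the edgeR fit; filled blue points are lower and filled red points higher at an adjusted p under 0.05, the open point is EFNA1, and grey ticks give 15 other ways of processing the counts (14 for EPHB3). EPHA2 stands apart at -2.59, EPHB3 at 1.84 has the widest error bar, and no gene's ticks lie on both sides of 0.

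Both B-type ephrin genes fell. EFNB2 (chromosome 13, 106489731 to 106535114, minus strand, 5 merged exons), whose product binds EPHB4 as well as other receptors, had 5.96, 5.78 and 6.43 CPM in siSRSF2 libraries, against 15.3, 14.1 and 14.7 CPM in WT libraries. No siSRSF2 library reached the lowest WT library, and EFNB2 had a log2 fold change of -1.28 (SE 0.094, edgeR adjusted p = 5.58e-12), a 2.43-fold lower level. EFNB1 (chromosome X, 68828997 to 68842147, plus strand, 5 merged exons), the ligand of EPHB receptors that is mutated in craniofrontonasal syndrome, had 1.76, 1.76 and 2.08 CPM in siSRSF2 libraries, against 2.94, 3.63 and 3.33 CPM in WT libraries. It was lower without overlap (log2 fold change -0.82, SE 0.17, edgeR adjusted p = 0.00022). EFNB2 and EPHB4 are also made by endothelial cells. The summed level of 5 endothelial markers was 1.21 to 2.28 CPM in siSRSF2 and 3.26 to 3.46 CPM in WT, and its part in the results was not tested. CDH5 (0.954 CPM in siSRSF2, 2.22 CPM in WT; 2.31-fold lower, edgeR adjusted p = 0.000124) and PECAM1 (0.206 CPM in siSRSF2, 0.830 CPM in WT; 4.08-fold lower, edgeR adjusted p = 0.000309) made up most of the WT sum. Both were lower, as was EFNB2, while EPHB4 was higher by a small margin. VWF, KDR and TEK averaged between 0.0700 and 0.168 CPM in either group, with counts of at most 12 in a library.

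Neither listed A-type ephrin gene passed the test as lower. EFNA1 (chromosome 1, 155127460 to 155134857, plus strand, 5 merged exons), the main ligand of EPHA2, had 16.3, 16.5 and 16.1 CPM in siSRSF2 libraries, against 13.9, 15.5 and 16.3 CPM in WT libraries. The groups overlapped, and the log2 fold change of 0.10 (SE 0.080, edgeR adjusted p = 0.283) had a 95% interval of -0.05 to 0.26. With scaling by library totals alone EFNA1 passed the test, with a log2 fold change of 0.23 (edgeR adjusted p = 0.0159), of which 0.13 is the shift of the median gene. EFNA4 (chromosome 1, 155063731 to 155069553, plus strand, 4 merged exons), a further ligand of EPHA receptors, had 4.74, 4.09 and 4.21 CPM in siSRSF2 libraries, against 2.47, 2.49 and 2.86 CPM in WT libraries. It was 1.66-fold higher without overlap (log2 fold change 0.73, SE 0.15, edgeR adjusted p = 0.000147).

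EFNA4, EFNA3 and EFNA1 lie next to each other on the plus strand of chromosome 1, and a transcript named RP11-540D14.8 has exon bases in the first pair, on the same strand. Of its exon bases, 189 lie in EFNA4, which is 15.0% of the length of EFNA4, and 853 in EFNA3, which is 44.7% of the length of EFNA3. RP11-540D14.8 had 2.65, 3.19 and 3.06 CPM in siSRSF2 libraries, against 0.923, 0.962 and 0.737 CPM in WT libraries. It was 3.40-fold higher (log2 fold change 1.77, SE 0.21, edgeR adjusted p = 4.61e-08). The sources used here do not say how reads in shared bases were divided, so the 3 entries are not separate measurements. With the counts of EFNA4 and RP11-540D14.8 added together, a setting chosen after the data were seen, the log2 fold change of the sum was 1.07 (edgeR adjusted p = 2.03e-08). RP11-540D14.8 shares far more bases with EFNA3 than with EFNA4, so the sum is not a measure of EFNA4 alone.

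Levels can be compared between genes only per length, here as RPKM, which is the CPM of a gene divided by its merged exon length in kilobases. That length covers all annotated exons of a gene, 12516 bases for EPHB2 and 4159 for EPHA2. The length of the transcripts present was not measured, so the order between genes depends on this choice. EPHB4 led in both groups, at 13.8 ± 0.416 RPKM in siSRSF2 and 12.3 ± 0.558 RPKM in WT (SD, n = 3 per group). EPHA2 stood next in WT cells, at 9.08 ± 0.466 RPKM, but at 1.51 ± 0.180 RPKM in siSRSF2 cells it ranked below EFNA1 (6.42 RPKM) and EFNA4 (3.44 RPKM). In siSRSF2 cells the ranges of EPHA2 (1.34 to 1.70 RPKM) and EFNB2 (1.30 to 1.44 RPKM) overlapped, as did those of EPHA1 (0.531 to 0.688 RPKM) and EFNB1 (0.532 to 0.626 RPKM), and so the order within these pairs is uncertain. In WT cells EFNA1 (5.99 RPKM), EFNB2 (3.30 RPKM), EFNA4 (2.07 RPKM), EPHB2 (1.45 RPKM), EPHA1 (1.2 RPKM) and EFNB1 (0.995 RPKM) followed EPHA2 without overlap between neighbours, though EPHA1 and EFNB1 nearly touched. EPHB3 and EPHA4 came last in both groups, and their ranges overlapped in WT.

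The make-up of the receptor RNA differed accordingly. Over the 6 listed receptor genes the summed level was 16.9 to 17.1 RPKM in siSRSF2 libraries, against 24.0 to 24.2 RPKM in WT libraries. EPHB4 made up 81.1% ± 1.84 of it in siSRSF2 and 51.1% ± 2.27 in WT (SD, n = 3 per group). EPHA2 made up 8.89% ± 1.11 in siSRSF2 and 37.7% ± 1.91 in WT. In a single library the level of EPHB4 was 7.84 to 10.4 times that of EPHA2 in siSRSF2 and 1.24 to 1.5 times in WT. For the 4 ligand genes the sums were near each other, 11.6 to 12.1 RPKM in siSRSF2 and 11.7 to 13.0 RPKM in WT, and their ranges overlapped. That overlap depended on the division by length. As CPM the ligand sums were 28.1 to 28.8 in siSRSF2 and 34.6 to 37.2 in WT. EFNB2 made up 11.5% ± 0.653 of the ligand sum per length in siSRSF2 and 26.8% ± 2.17 in WT. EFNA4 made up 29.2% ± 1.71 in siSRSF2 and 16.7% ± 0.730 in WT. The level of EFNA1 was 3.74 to 4.85 times that of EPHA2, a receptor of its product, in siSRSF2 libraries, and 0.603 to 0.743 times in WT libraries. These shares follow from the levels above and were given no test.

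**Figure D3:**
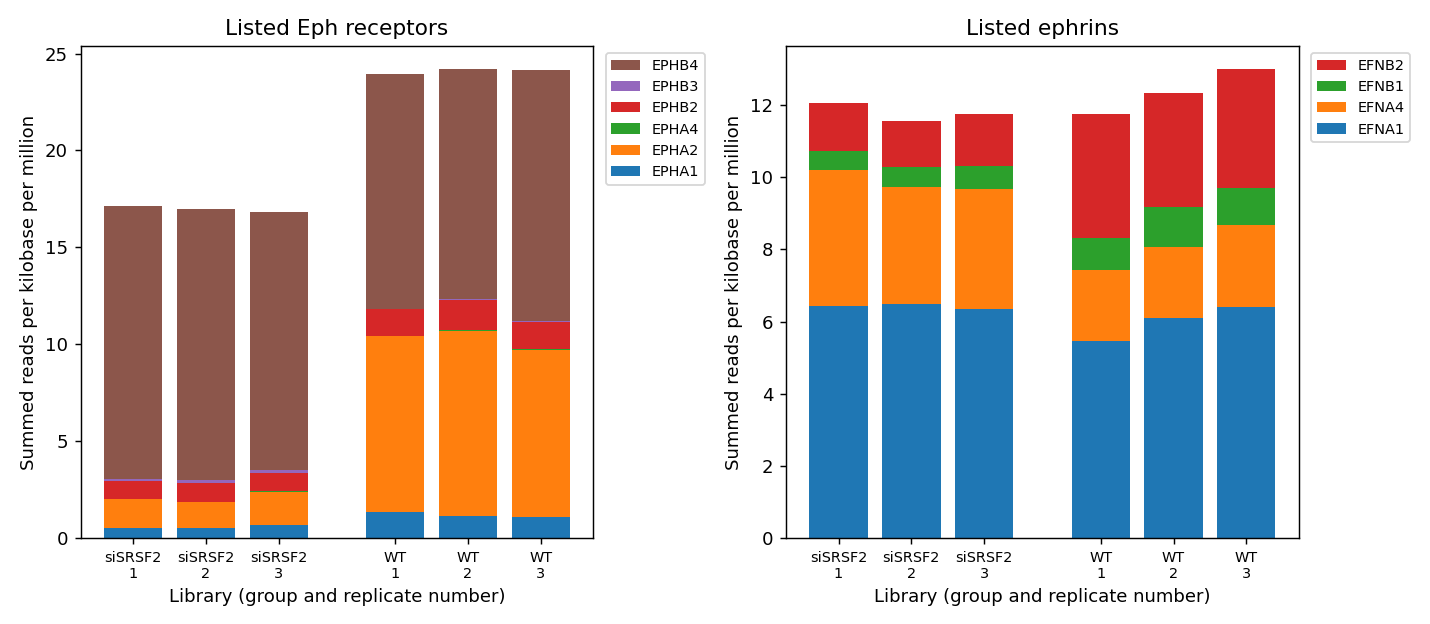
Levels per length (RPKM, stacked, vertical axes start at 0) of the 6 listed receptor genes (left panel) and the 4 listed ephrin genes (right panel) in each library, siSRSF2 libraries left and WT libraries right. The EPHA2 segment is thin in the 3 siSRSF2 columns, and the receptor columns reach 16.9 to 17.1 RPKM there against 24.0 to 24.2 RPKM in WT, while the ligand columns reach similar heights.

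The table holds 12 other Eph and ephrin genes, of which 4 passed the filter on low counts. The others (EPHA3, EPHA7, EPHA8, EPHA10, EPHB1, EPHB6, EFNA2 and EFNB3) had at most 13 counts in any library. EPHA5, a receptor best known from the nervous system, had 26.5, 22.9 and 21.1 CPM in siSRSF2 libraries, against 10.8, 12.2 and 10.9 CPM in WT libraries. It rose 2.08-fold (log2 fold change 1.06, SE 0.086, edgeR adjusted p = 3.97e-11), opposite in sign to EPHA2 and EPHA1. EFNA3, the A-type ephrin gene between EFNA4 and EFNA1, had 4.08, 4.56 and 4.35 CPM in siSRSF2 libraries, against 1.36, 1.25 and 1.26 CPM in WT libraries (log2 fold change 1.75, SE 0.17, edgeR adjusted p = 1.29e-09), with the shared bases named above. EFNA5 fell by 0.32 on the log2 scale (SE 0.11, edgeR adjusted p = 0.0152), and EPHA6 did not pass (0.61, SE 0.69, edgeR adjusted p = 0.477).

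Summed per length over every family gene in the table, the 9 A-type receptor genes reached 4.27 to 4.90 RPKM in siSRSF2 libraries, against 10.9 to 12.1 RPKM in WT libraries. The 5 B-type receptor genes reached 14.5 to 15.2 RPKM in siSRSF2 and 13.5 to 14.5 RPKM in WT, and the ranges overlapped at their ends. With library totals in place of TMM those ranges were 15.4 to 16.0 RPKM and 13.0 to 13.7 RPKM, so whether they overlapped depended on the scaling. The 5 A-type ephrin genes reached 13.2 to 13.6 RPKM in siSRSF2, against 9.68 to 10.8 RPKM in WT. The 3 B-type ephrin genes reached 1.83 to 2.10 RPKM in siSRSF2, against 4.33 to 4.36 RPKM in WT. The lower A-type receptor sum rests on EPHA2: without it, a sum chosen after the levels were seen, the other 8 genes reached 2.93 to 3.41 RPKM in siSRSF2, against 2.30 to 2.56 RPKM in WT, with EPHA5 the most abundant of them in siSRSF2. The higher A-type ephrin sum likewise does not hold for each gene, as EFNA1 did not pass the test and EFNA5 fell. These sums were given no test.

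Genes for proteins that carry or limit the signal were read from a list of 42 partners, of which 40 were tested. Of these, 12 were higher, 13 lower and 15 did not pass, with a median log2 fold change of -0.02, so 25 of the 40 were called, against 59.1% of all genes tested. VAV3 and VAV2 encode guanine nucleotide exchange factors that act below activated Eph receptors. VAV3 had 125, 118 and 120.2 CPM in siSRSF2 libraries, against 38.3, 37.2 and 43.4 CPM in WT libraries (log2 fold change 1.61, SE 0.056, edgeR adjusted p = 1.49e-18). VAV2 had 29.1, 29.5 and 27.8 CPM in siSRSF2 libraries, against 56.8, 59.6 and 57.2 CPM in WT libraries (log2 fold change -1.01, SE 0.056, edgeR adjusted p = 1.68e-14). The related genes thus changed in opposite directions. FYN, a Src-family kinase that ephrin-B proteins recruit, rose 2.03-fold, and AFDN, an adhesion scaffold listed under its older name MLLT4, rose 1.47-fold. PTPN11, a tyrosine phosphatase, fell by 0.77 and ABL2, a tyrosine kinase of the cytoskeleton, fell by 0.71 on the log2 scale.

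**Figure D4:**
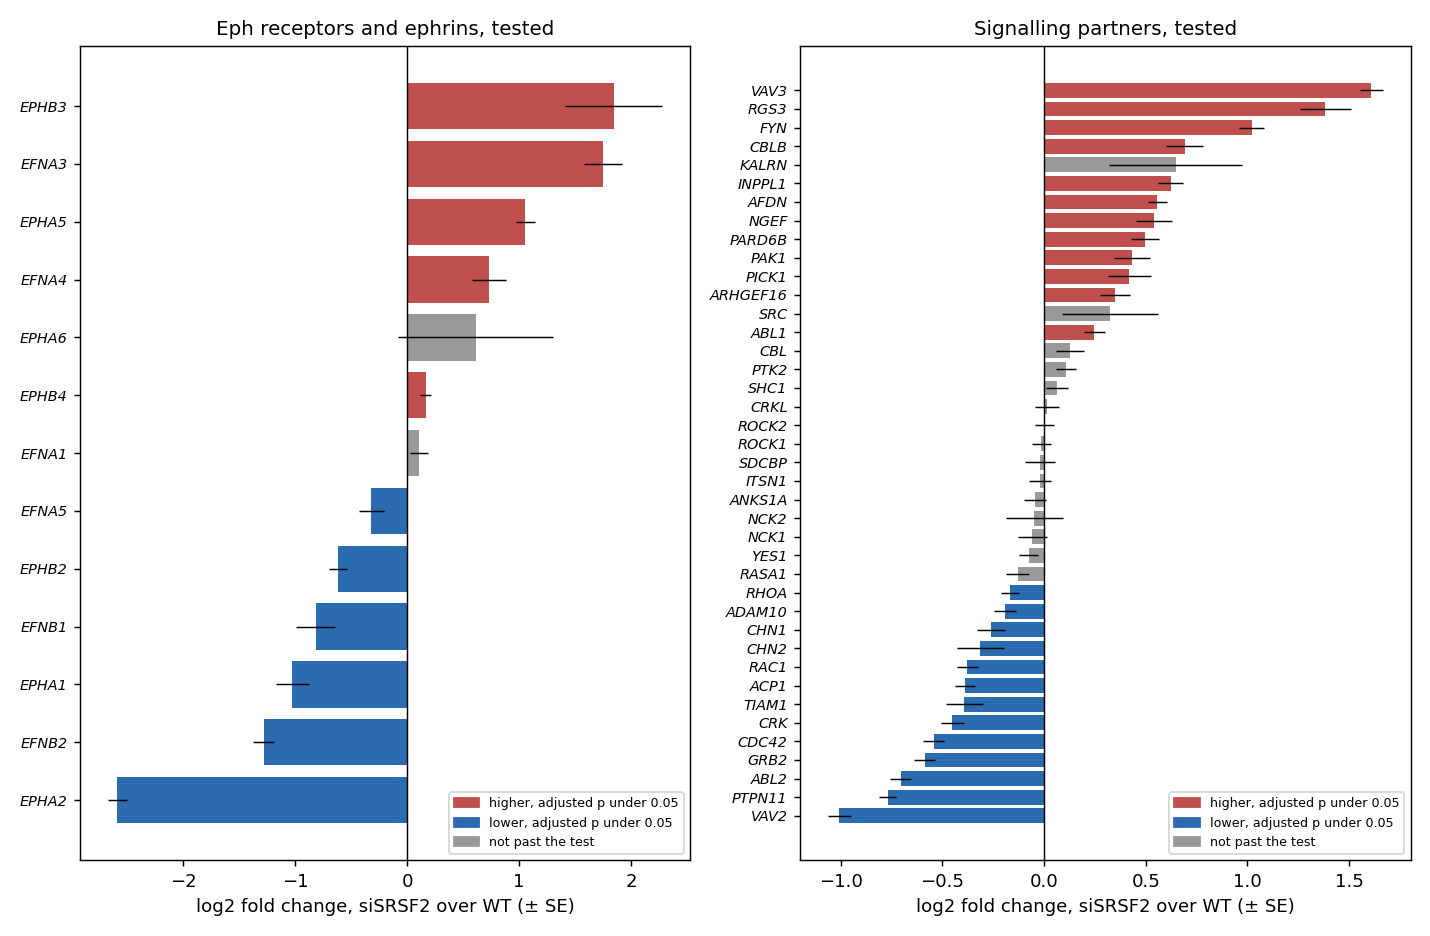
The log2 fold change, siSRSF2 over WT, with SE (horizontal axes) of the 13 tested Eph and ephrin genes of the table (left panel) and of the 40 tested signalling partners (right panel); red is higher and blue lower at an edgeR adjusted p under 0.05, grey did not pass. Family genes run between 1.84 for EPHB3 and -2.59 for EPHA2, and partners between 1.61 for VAV3 and -1.01 for VAV2.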

How the data were processed

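RNA of 6 AGS samples was sequenced as mRNA libraries (SMARTER chemistry per the labels' protocols). The deposited values are unnormalized read counts in 1 table of 56303 rows, which carry 56301 distinct gene names, with the merged exon length of each gene, used here for RPKM. HISAT2 2.0.5 and featureCounts 1.5.0-p3 are listed by the submitters' processing notes, which also give mm10, although that is a mouse genome. Names and exon positions in the table are human: 36027 names occur once in a GENCODE annotation of GRCh38, and of these 93.1% have an identical start and end. In 28 entries the name reads as a date, none of them a gene named here.

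Groups came from the sample titles and genotype labels. Counts were filtered with filterByExpr (minimum count 10; 23689 genes, 99.9% of counts), scaled by TMM and tested with edgeR 4.0.16 in R 4.3.3, quasi-likelihood F test with robust fitting, group as the only term, Benjamini-Hochberg adjustment over all genes at 0.05. Each SE is the size of the log2 change divided by the square root of its F statistic. The 95% intervals are normal approximations from that SE, slightly narrower than the F test would give. The test was also run on simulated counts in which only a few genes were changed. In these libraries 59.1% of genes were called, so that run cannot vouch for the error rate here. Alternatives used DESeq2 1.42.0, limma 3.58.1 (voom), other scalings, filters and fits, a test against 1.2-fold, the replicate number as a block and each library left out.

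The genes described, the lists and the tests were chosen with earlier results of these data known, and the motifs after the files were read. All 10 genes, SRSF2, the other tested family genes, the 6 partners with the smallest p, genes sharing exon bases with one of the 10, and the 3 genes nearest to the one with the largest change are named. Markers are named where a limit needs them. The result of 1 further marker list is not reported here.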

Additional observations from a re-analysis of the deposited data

How the results depend on the processing

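Under 15 alternatives, EPHA2 (log2 fold change -2.70 to -2.46), EFNB2 (-1.36 to -1.15), EPHA1 (-1.17 to -0.90), EFNB1 (-0.91 to -0.69), EPHB2 (-0.69 to -0.49), EFNA4 (0.66 to 0.86) and SRSF2 (-1.06 to -0.85) kept their direction and call. EPHB3 (1.65 to 2.13) did so under the 14 that tested it, but it passed the main filter only through its siSRSF2 libraries. With a mean CPM of at least 1 EPHB3 was not tested. EPHB4 lost its call with no filter (0.089), against 1.2-fold (0.16) and without WT replicate 2 (range over libraries left out 0.13 to 0.19). EFNA1 gained one with library totals (0.23). The 10 genes gave 7 to 9 calls and all genes 10510 to 14103.

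Shares were also taken from CPM without gene length. EPHB4 then made up 80.4% of the receptor sum in siSRSF2 and 56.1% in WT, and EPHA2 5.69% in siSRSF2 and 26.8% in WT. Of the ligand sum, EFNA1 made up 57.1% in siSRSF2 and 42.4% in WT, and EFNB2 21.2% in siSRSF2 and 41.1% in WT. EFNA4 made up 15.2% in siSRSF2 and 7.28% in WT. Per length, EFNA1 had made up 54.5% in siSRSF2 and 48.4% in WT. Same-numbered libraries did not deviate together (correlations of 0.043, -0.077 and -0.055). No pairing by number was seen, though with 3 libraries per group a weak one could be missed. With the replicate block 13697 genes and 8 of the 10 were called, and EPHA2 was at -2.59. EPHA4 passed the filter in 2 of the fits with a library left out and in the fit with no filter, at log2 fold changes of -0.06 to 0.43, and was called in none. Depth limits EPHA4 and EPHB3, which had at most 29 counts in a library.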
